A study of Mus musculus with 477 samples.

Results

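Cells of 2 mammary tumors, called Br53T2 and Br53T1, were compared. The members were the cells whose source label was Br53T2 (51 cells) or Br53T1 (30 cells), so the comparison held 81 of the 477 single cells of the series. Each tumor came from 1 mouse of the same genotype class, in which MMTV-Cre deletes both floxed copies of *Brca1* and 1 of the copies of *Trp53* (Brca1 fl/fl, Trp53 fl/+). MMTV-Cre is a mammary-directed recombinase that is most active in epithelium and does not act in every cell. The other mice of the series gave 2 *Brca1*-mutant tumors (BrT1 and BrT2) and 7 samples of sorted mammary luminal cells, with v for virgin, p for pregnant, Br for *Brca1*, 53 for *Trp53* and L for luminal in their names. The tumor cells had been depleted of blood and endothelial cells and sorted as live CD24+ cells, with no gate on CD29 or on the GFP reporter that was used for the luminal cells. Capture was on Fluidigm C1 chips, which hold 1 cell per chamber, and full-length cDNA of each cell was sequenced. Br53T1 was alone on its chip, and Br53T2 shared its chip with cells of the luminal mouse pBrL-2, so the tumor and the chip cannot be told apart. With 1 mouse a side there was no replicate and no test was made. Intervals cover counting error only, and every difference below is between these 2 tumors and not between conditions.

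The mammary duct has an inner luminal layer and an outer basal layer. Luminal cells carry keratins 8, 18 and 19 and are either hormone-sensing, with the receptors for estrogen, progesterone and prolactin, or alveolar, with the transcription factor *Elf5* and the milk proteins. Basal cells carry keratins 5, 14 and 17 and the transcription factor p63, and their differentiated form, the myoepithelial cell, contracts with smooth muscle proteins to eject milk. Tumors of *Brca1*-deficient glands are known for their basal features, although many arise from luminal cells.

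Reads per cell ran from 518319 to 2876544 in Br53T2 and from 344970 to 2652039 in Br53T1, which summed to 90.8 M and 54.9 M reads. Detected genes per cell ran from 2692 to 8001 with a median of 6244 in Br53T2, and from 4866 to 8299 with a median of 6575 in Br53T1. Levels are given as CPM, the reads of a gene scaled to a common total, from the counts summed over the cells of a tumor unless a single cell is named. A cell counted as having a read of a gene when the read remained after thinning that cell to 100000 reads. A gene was considered when at least 1 of the tumors had 10 CPM and a read in at least 25% of its cells. It was called higher or lower in Br53T2 when the ratio was at least 4-fold and the higher tumor met both minimums, with 3 reads over the tumor standing in for fewer.

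The targeted genes and the sorting markers were examined first. *Brca1* was at 25.6 CPM in Br53T1 (95% Poisson interval 24.3 to 27) and 21.7 CPM in Br53T2 (20.7 to 22.6), with a read in 6 of 30 and 9 of 51 cells. *Trp53* was at 67.2 CPM in Br53T1 and 140 CPM in Br53T2. In Br53T2 it was at 604 CPM in the 6 cells with the *Elf5* pattern alone, defined further on. It was between 39.9 and 117 CPM in the other Br53T2 cell groups. The counts are per gene and not per exon, so reads from exons outside the floxed part are included and these levels do not check the deletion. *Cd24a*, which encodes the antigen of the sort, was at 260 CPM in Br53T1 and 1034 CPM in Br53T2, and every cell of both tumors had at least 1 read of it. *Itgb1*, the CD29 gene, was at 547 and 377 CPM. Among the markers of other cell types, the 9 fibroblast genes summed to 3.46 CPM in Br53T1 and 104 CPM in Br53T2, of which *Dcn* (decorin, a matrix proteoglycan) made 87.5 CPM. *Col1a1*, a defining fibroblast collagen, was at 1.4 and 0.738 CPM. The 10 immune genes summed to 32.5 and 51.9 CPM, the 6 endothelial genes to 0.0547 and 13.7 CPM, and the 4 pericyte genes to 22.3 and 20.4 CPM.

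Of 7725 genes considered, 455 were higher in Br53T2 (5.89%) and 597 were lower (7.73%), and the median log2 ratio over all genes considered was -0.06. By the same rule BrT2 against BrT1, a pair of tumors from the *Brca1* genotype on separate chips, gave 655 higher (8.58%) and 1084 lower (14.2%) of 7631 genes. The pair of luminal mice of 1 group, pBrL-2 against pBrL-1, gave 88 higher (1.37%) and 36 lower (0.562%) of 6401 genes. The double-mutant pair thus lay between the *Brca1* tumors and the luminal mice in the share of genes past 4-fold. Because pBrL-2 shared its chip with Br53T2, the genes past 4-fold in both comparisons were counted. Of the 455 higher genes 229 were considered in the luminal pair, and 5 were also higher in pBrL-2, beside 1.37% of all genes there. These 5 made 1.10% of the tumor list and 5.68% of the luminal list. Of the 597 lower genes 264 were considered in the luminal pair, and 2 were also lower, beside 0.562%. These 2 made 0.335% and 5.56% of the lists, while 6 genes went the other way. Genes not considered in the luminal pair could not be shared.

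**Figure D1:**
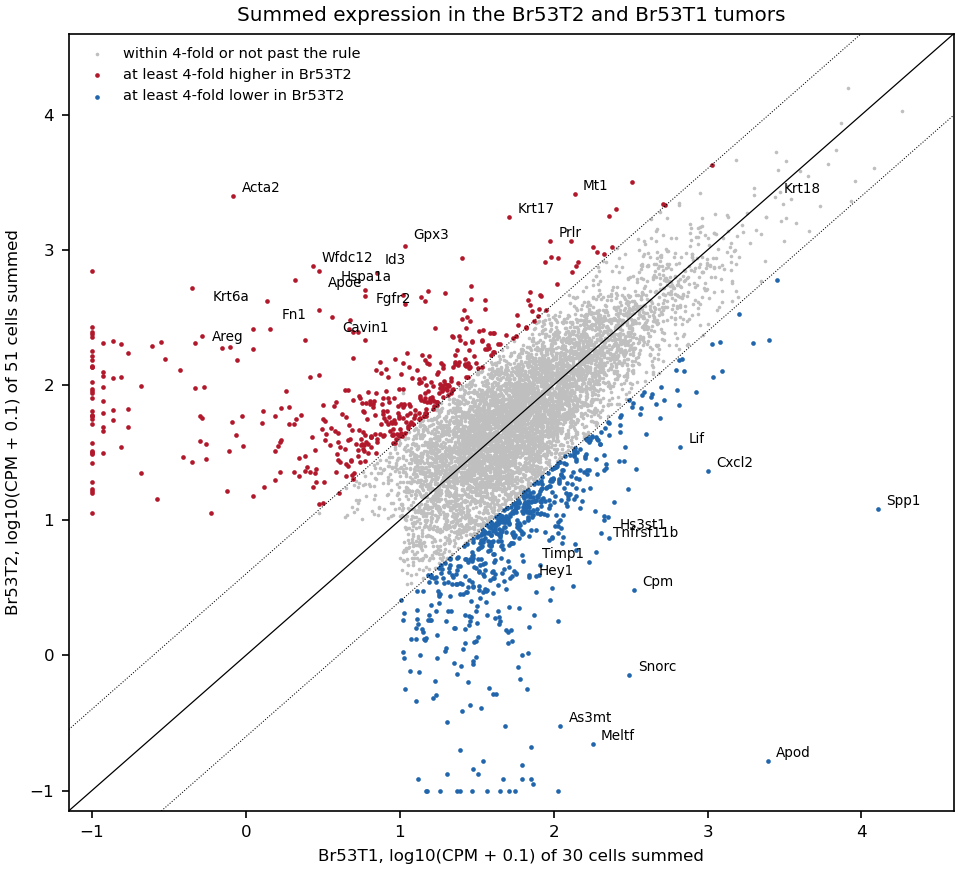
Summed expression of every considered gene in Br53T1 (x axis) and Br53T2 (y axis), as log10 of CPM plus 0.1. The solid line marks equal levels and the dotted lines 4-fold; the 455 higher genes are red and the 597 lower genes blue. *Acta2* stands far above the upper line and *Spp1* and *Apod* far below the lower one, while the luminal keratin gene *Krt18* lies near the line of equal levels.

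Br53T2 differed from Br53T1 in basal and contractile genes. Among 16 considered genes of the basal epithelium list 8 were higher in Br53T2 and 0 were lower, with a median log2 ratio of 1.92. Of the 12 genes of the myoepithelial contraction list 8 were considered, and of these 6 were higher and 0 lower. Both counts stand beside the 5.89% of all genes considered. However, 5 of the 8 contraction genes and 5 of the 16 basal genes met the minimums through Br53T2 alone, which set their direction. Of the 3 contraction genes that met them in both tumors, *Myl9* was higher, and *Tpm1* (373 CPM in Br53T1 and 757 in Br53T2) and *Cald1* (995 and 805) were not past 4-fold. When the Br53T2 cells with a contractile pattern, defined further on by these contraction genes, were left out, 3 basal genes were higher.

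*Acta2*, smooth muscle actin and the main filament of myoepithelial contraction, ran per cell from 0 through a median of 11.5 to 46542 CPM in Br53T2, and from 0 through 0.424 to 5.98 CPM in Br53T1. No Br53T1 cell reached 10 CPM, whereas 19 of 51 Br53T2 cells exceeded 100 CPM, and the low ends of the tumors overlapped. Summed, *Acta2* was at 2508 CPM in Br53T2 (2498 to 2518) and 0.729 CPM in Br53T1 (0.521 to 0.992). A single cell gave 36% of its Br53T2 reads, and the level without that cell was 1636 CPM. Of the other 9 mice, pBrL-1 had the highest *Acta2* level, 248 CPM.

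Other contraction genes followed the same division. The myosin heavy chain gene *Myh11* was at 171 CPM in Br53T2 and 0.0729 CPM in Br53T1, and *Tagln*, which encodes the actin-binding protein transgelin, was at 154 and 0.783 CPM. The regulatory light chain gene *Myl9* was at 241 and 40.8 CPM, a ratio of 5.92-fold and the smallest among the 6. *Cnn1*, calponin, had a read in 11 of 51 Br53T2 cells, too few for the rule, at 233 CPM, and no read in any Br53T1 cell. It was at least 4259-fold higher in Br53T2 with the floor of 3 reads over the 30 cells.

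The promoters of *Acta2* and *Myl9* are shown because these genes went together across the Br53T2 cells and because smooth muscle genes are known to carry CArG boxes, the sites of serum response factor. Each is the 250 bases before the RefSeq start on the gene's own strand in GRCm38.p6, the build also called mm10. Capitals mark a match to the strict CArG box on either strand.
Acta2 (chr19:34255374-34255623, minus strand): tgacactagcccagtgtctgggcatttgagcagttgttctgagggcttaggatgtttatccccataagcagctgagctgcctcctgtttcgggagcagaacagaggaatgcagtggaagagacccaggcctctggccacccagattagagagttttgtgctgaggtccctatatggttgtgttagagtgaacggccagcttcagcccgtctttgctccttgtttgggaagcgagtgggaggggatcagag
Myl9 (chr2:156775214-156775463, plus strand): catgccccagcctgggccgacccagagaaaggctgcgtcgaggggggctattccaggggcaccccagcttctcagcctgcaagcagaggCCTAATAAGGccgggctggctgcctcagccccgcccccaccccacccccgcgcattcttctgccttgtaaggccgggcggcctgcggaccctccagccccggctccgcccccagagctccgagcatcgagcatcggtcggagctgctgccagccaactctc
The *Myl9* window held 1 match, 161 bases before the start, and the *Acta2* window held 0. The strict box allows only A or T between its CC and its GG. The *Acta2* window holds ccctatatgg and ccttgtttgg, which each differ from the strict box by 1 base and were not counted. The 0 therefore does not mean that the window lacks such sites. Of the 12 contraction genes 9 had a window and 1 of them held a match, and 1.47% of 32851 windows of this length held one. A match is a string of letters and not a measured site.

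Basal keratins had higher values in Br53T2, and the adhesion genes of the basal layer went both ways. *Krt17*, a keratin of basal and stressed epithelium, ran per cell from 0 through 413 to 13252 CPM in Br53T2 and from 0 through 0 to 1057 CPM in Br53T1, and 34 of 51 against 2 of 30 cells exceeded 100 CPM. A single cell gave 86.3% of the *Krt17* reads of Br53T1, so the summed 51.6 CPM there rested on that cell, against 1754 CPM in Br53T2. *Krt5*, the partner keratin of the basal layer, had 1 read in all 30 Br53T1 cells and 126 CPM in Br53T2. *Krt14* was at 190 and 643 CPM, 3.39-fold and so under the 4-fold limit. *Trp63*, which encodes the basal regulator p63, was at 32.2 and 133 CPM. *Col17a1*, a hemidesmosome collagen, was at 0.182 and 209 CPM, and *Itga6*, an integrin chain of the same junctions, at 83.1 and 455 CPM. Other junction genes of the list were not past 4-fold and had lower values in Br53T2: *Itgb4*, the integrin partner of *Itga6*, was at 101 CPM in Br53T1 and 1.69-fold below that in Br53T2, and *Dst*, which links hemidesmosomes to keratin, at 619 and 311 CPM.

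Luminal genes did not part the tumors in the same way. The 16 genes of the luminal epithelium list summed to 8635 CPM in Br53T1 and 9948 CPM in Br53T2, and of 15 considered genes 1 was higher (*Krt19*) and 1 lower (*Muc1*), near the 5.89% and 7.73% of all genes. *Krt18* was at 2747 and 2453 CPM and *Krt8*, its partner, at 925 and 880 CPM. *Krt19*, another luminal keratin, was at 88 CPM in Br53T1 and 818 CPM in Br53T2. *Epcam*, an epithelial adhesion gene, was at 1217 and 611 CPM. What differed was the spread over cells: *Krt18* ran from 0 to 11016 CPM with a median of 1298 in Br53T2, while all 30 Br53T1 cells carried a read of it.

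At the level of single cells, the keratins were combined in different ways. A cell was counted as carrying both classes when it had at least 100 CPM summed over *Krt5*, *Krt14* and *Krt17* and at least 100 CPM summed over *Krt8*, *Krt18* and *Krt19*. This held for 30 of 51 Br53T2 cells (58.8%, exact binomial interval 44.2 to 72.4) and 7 of 30 Br53T1 cells (23.3%, 9.93 to 42.3). Basal keratins alone reached the level in 10 Br53T2 cells and 0 Br53T1 cells, which allows a share of up to 11.6% there. Some of these 10 cells had few detected genes, down to 2692, against a minimum of 4866 in Br53T1. Luminal keratins alone did so in 11 and 23 cells. Per kilobase of exon, the basal keratins exceeded the luminal ones in 20 of 51 Br53T2 cells and 0 of 30 Br53T1 cells, and in at most 1 cell of each of the other 9 mice.

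The *Krt14* and *Krt18* levels went in opposite directions across Br53T2 cells, with a Spearman correlation of -0.61 over 51 cells, against -0.06 over 30 Br53T1 cells. *Krt8* and *Krt18* went together at 0.91 and 0.50. *Acta2* went with *Myl9* at 0.83, with *Tpm2* (tropomyosin) at 0.76 and with *Krt14* at 0.60 in Br53T2, and with the prolactin receptor gene *Prlr* at -0.44. Cells of 1 tumor share their library preparation and chip, so these values are descriptions of each tumor.

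The hormone-sensing genes were examined as a second group. Of the 11 genes of the list 7 were considered (*Esr1*, *Pgr*, *Prlr*, *Foxa1*, *Areg*, *Tnfsf11* and *Wnt4*) and all 7 were higher in Br53T2, beside 5.89% of all genes. Of these, 6 met the minimums through Br53T2 alone, which set their direction, and *Prlr* met them in both tumors. Of the 4 genes not considered, *Cited1* and *Greb1* were at 17.7 and 18.8 CPM in Br53T2 with no read in Br53T1, *Stc2* was at 9.07 CPM in Br53T1 and 7.05 in Br53T2, and *Tff3* had no read in either tumor. Among the receptors, *Prlr* ran per cell from 0 through 103 to 7018 CPM in Br53T2 and from 0 through 58.2 to 558 CPM in Br53T1, and summed to 1161 and 94.9 CPM. The ranges overlapped over most Br53T1 cells, and 27 of 51 against 10 of 30 cells exceeded 100 CPM. *Esr1*, the estrogen receptor gene, was at 116 CPM in Br53T2, where 13 of 51 cells had a read, and had 1 read in Br53T1. *Pgr*, the progesterone receptor gene, was at 30.9 CPM and had no read in Br53T1. *Foxa1*, a transcription factor that opens chromatin for the estrogen receptor, was at 96.2 and 0.437 CPM.

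Of the genes just counted, *Areg*, *Tnfsf11* and *Wnt4* encode signals that hormone-sensing cells send to their neighbors. *Areg*, amphiregulin, an epidermal growth factor receptor ligand that relays estrogen, ran per cell from 0 through 22.3 to 1072 CPM in Br53T2, while 28 of 30 Br53T1 cells had no read. Its sums were 260 and 1.02 CPM. *Tnfsf11*, the RANK ligand gene, was at 59.4 CPM with no read in Br53T1, and *Wnt4*, another progesterone target, at 64.1 and 1.18 CPM, where 1 cell gave all the Br53T1 reads. Of the EGF family ligands 3 of 5 considered genes were higher, beside 5.89% of all genes, and all 3 met the minimums through Br53T2 alone. Besides *Areg* these were *Epgn* (epigen) at 271 CPM with no read in Br53T1, and *Nrg1* (neuregulin) at 352 and 72.1 CPM. *Nrg1* was at 840 CPM in the contractile and 3 CPM in the hormone-sensing cells of Br53T2, which are defined further on.

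Squamous and wound keratins formed a smaller group. Of 6 considered genes 4 were higher in Br53T2 and 0 lower, beside 5.89% and 7.73% of all genes, and those 4 met the minimums through Br53T2 alone. *Krt6a*, a keratin of wounded and proliferating epithelium, was at 422 CPM in Br53T2 and 1.28 CPM in Br53T1, and *Sprr1a*, a precursor of the cornified envelope, at 595 and 1.99 CPM. *Krt16* was at 136 and 11.3 CPM and *Ly6d*, a surface protein of squamous epithelium, at 421 and 14.6 CPM. *Krt6a*, *Krt16*, *Krt14*, *Krt17* and *Hspa1a* have close copies in the genome, and reads could have been split between them.

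**Figure D2:**
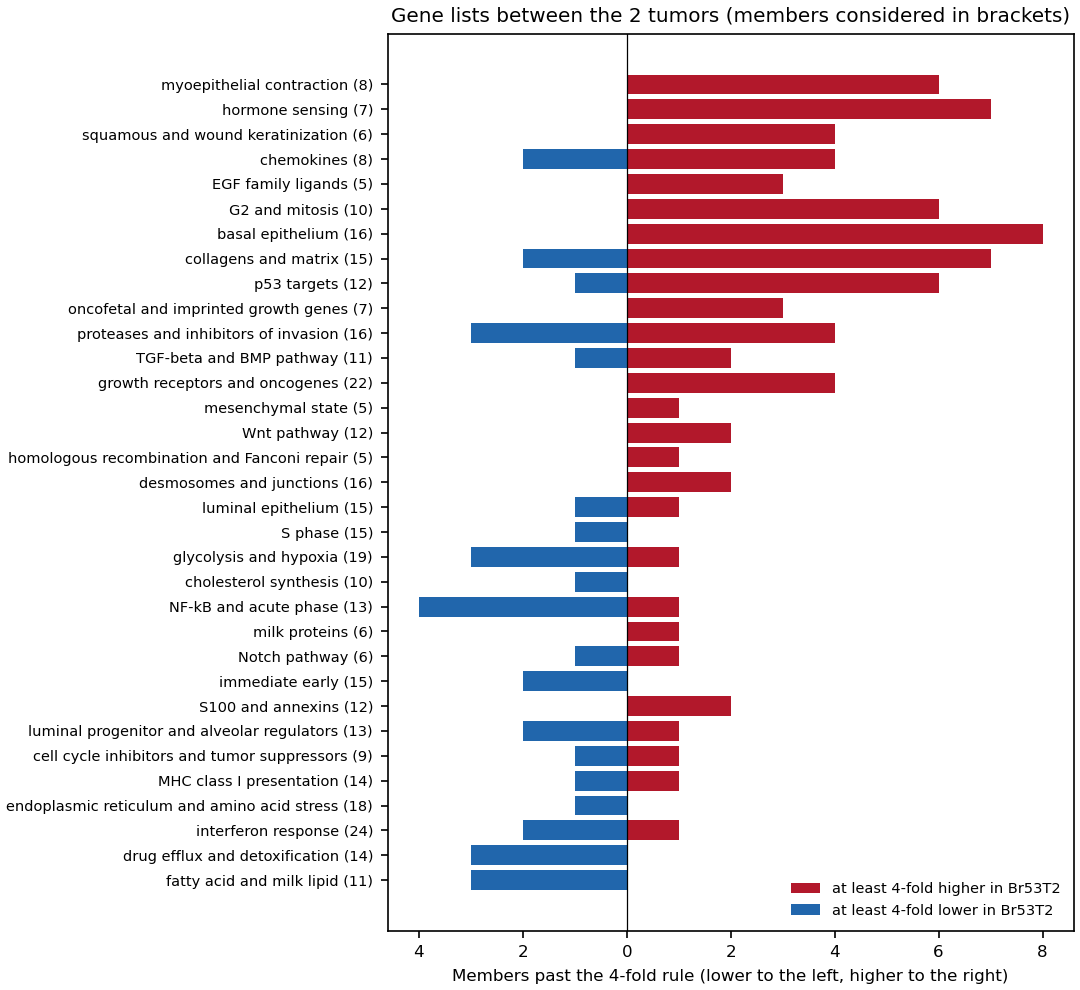
Members of each fixed gene list that were at least 4-fold lower (blue, left) or higher (red, right) in Br53T2, with the number of considered members in brackets and the lists ordered by median log2 ratio. Contraction (6 of 8), hormone sensing (7 of 7) and basal (8 of 16) genes extend to the right alone, although 5, 6 and 5 of these considered genes met the minimums through Br53T2 alone, and fatty acid (3 of 11) and detoxification (3 of 14) genes to the left alone, of which 3 and 4 considered genes met them through Br53T1 alone.

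The 12 genes with the largest difference toward Br53T2, among those read in at least 50% of its cells, were *Acta2*, *Wfdc12*, *Apoe*, *Gpx3*, *Id3*, *Krt6a*, *Hspa1a*, *Fgfr2*, *Krt17*, *Fn1*, *Areg* and *Cavin1*. *Wfdc12*, a gene of the whey acidic protein domain family, ran from 0 through 5.87 to 8504 CPM per cell in Br53T2 and from 0 through 0 to 48.3 CPM in Br53T1. *Apoe*, the lipid carrier apolipoprotein E, ran from 0 through 18.8 to 4885 CPM, and only 2 of 30 Br53T1 cells had a thinned read. Both genes were thus near 0 in one part of the Br53T2 cells and high in another. *Id3*, a helix-loop-helix inhibitor downstream of BMP signals, had a read in 43 of 51 against 2 of 30 cells and sums of 681 and 7 CPM. Its level was uneven across the marker patterns defined further on. It was at 2345 CPM in the cells of no pattern and 411, 341 and 74.9 CPM in the contractile, hormone-sensing and *Elf5* cells.

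Among growth factor receptors, *Fgfr2* ran per cell from 0 through 303 to 1980 CPM in Br53T2 and from 0 through 0 to 111 CPM in Br53T1, and 43 of 51 against 2 of 30 cells had a read. It was at 454 and 5.85 CPM, 77.6-fold apart. *Fgfr1*, the related receptor gene, went the other way by 3.55-fold, at 284 CPM in Br53T2 and 1010 CPM in Br53T1. *Fgfr3* was at 53.5 and 0.711 CPM and *Ccnd2*, cyclin D2, at 487 and 70.2 CPM, and 4 of 22 considered genes of the growth receptor and oncogene list were higher and 0 lower, beside 5.89% and 7.73% of all genes, and 1 of these 4 met the minimums in both tumors. *Fn1*, fibronectin, was at 357 and 2.9 CPM, but BrT1 and BrT2 held it too, and the highest level among the other 9 mice was 6200 CPM. *Hspa1a*, an inducible heat shock protein gene, was at 507 and 5.87 CPM and *Gpx3*, a secreted glutathione peroxidase gene, at 1076 and 10.7 CPM.

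The 12 genes with the largest difference toward Br53T1 were *Spp1*, *Apod*, *Cxcl2*, *Snorc*, *Cpm*, *Meltf*, *Lif*, *Hs3st1*, *Timp1*, *Hey1*, *Tnfrsf11b* and *As3mt*. *Spp1*, osteopontin, a secreted adhesion protein of lactating and tumor epithelium, lies on chromosome 5 (104435118 to 104441050). Its levels per cell ran from 1509 through 8549 to 44552 CPM in Br53T1 and from 0 through 0 to 383 CPM in Br53T2. The tumors did not overlap for this gene: each of 30 Br53T1 cells exceeded every Br53T2 cell. The sums were 12733 and 11.9 CPM, 1067-fold apart, and a single cell gave 80.8% of the Br53T2 reads. The other 9 mice ranged from 91.5 to 21352 CPM, so that Br53T2 was the lowest of the 11 mice.

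*Apod*, the lipid carrier apolipoprotein D, ran from 0 through 829 to 12091 CPM per cell in Br53T1 and from 0 to 1.83 CPM in Br53T2. It had 6 reads in all 51 Br53T2 cells, a sum of 0.0661 CPM against 2459 CPM, and BrT2 with 997 CPM was the only other mouse above 10 CPM. *Snorc*, a proteoglycan gene of cartilage, was at 310 CPM in Br53T1 and at most 2.47 CPM in the other 9 mice. *Meltf*, the iron-binding melanotransferrin, was at 180 and 0.121 CPM and had a read in 29 of 30 against 2 of 51 cells. *Hey1*, a target of Notch signals, was at 170 and 4.79 CPM. Of 6 considered Notch genes *Hey1* was lower and *Hes1* higher, beside 7.73% and 5.89% of all genes. The median log2 ratio of that list was -0.22, and 1 of the called genes met the minimums in both tumors. *Tnfrsf11b*, osteoprotegerin, the decoy receptor of RANK ligand, was at 203 and 7.96 CPM, opposite in direction to its ligand gene *Tnfsf11*.

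*Cxcl2*, which encodes a chemokine that attracts neutrophils, ran per cell from 0.523 through 769 to 3079 CPM in Br53T1 and from 0 through 0 to 598 CPM in Br53T2, with sums of 1011 and 23.2 CPM, and a single cell gave 65.1% of the Br53T2 reads. Its neighbor *Cxcl1* was at 2522 and 217 CPM. *Lif*, an interleukin 6 family cytokine, was at 662 and 34.9 CPM, with 60.2% of the Br53T2 reads from 1 cell, and *Csf3*, the granulocyte growth factor, at 304 and 16.8 CPM, where 1 cell gave 88.7% of the Br53T2 reads. *Tnf* was at 270 and 58.1 CPM and *Nfkb1*, an NF-kB subunit gene, at 497 and 96.8 CPM. Of 13 considered genes of the NF-kB list 4 were lower and 1, *Icam1*, was higher, beside 7.73% and 5.89% of all genes, and 2 of these 5 met the minimums in both tumors. The median log2 ratio of -0.12 was near the -0.06 of all genes.

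Of 8 considered chemokine genes *Cxcl1* and *Cxcl2* were lower, and *Cxcl10*, *Cxcl12*, *Cxcl14* and *Ccl2* were higher, beside 7.73% and 5.89% of all genes. Of these 6 genes 1 met the minimums in both tumors, so the direction of the other 5 was set by the minimums. Without the contractile Br53T2 cells 2 were higher and 2 lower. *Cxcl3* and *Cxcl5*, relatives of *Cxcl1* that did not meet the minimums, were at 9.64 and 13.7 CPM in Br53T1 and 10.2 and 19.4 CPM in Br53T2. *Cxcl10*, which attracts T cells, was at 136 CPM in Br53T2 with a read in 26 of 51 cells and had no read in Br53T1. *Ccl2*, which attracts monocytes, was at 200 CPM in Br53T2 against 3 reads in Br53T1, and without its highest cell at 65.7 CPM. The immune marker sums given above were 32.5 and 51.9 CPM, and their part in these levels was not tested.

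**Figure D3:**
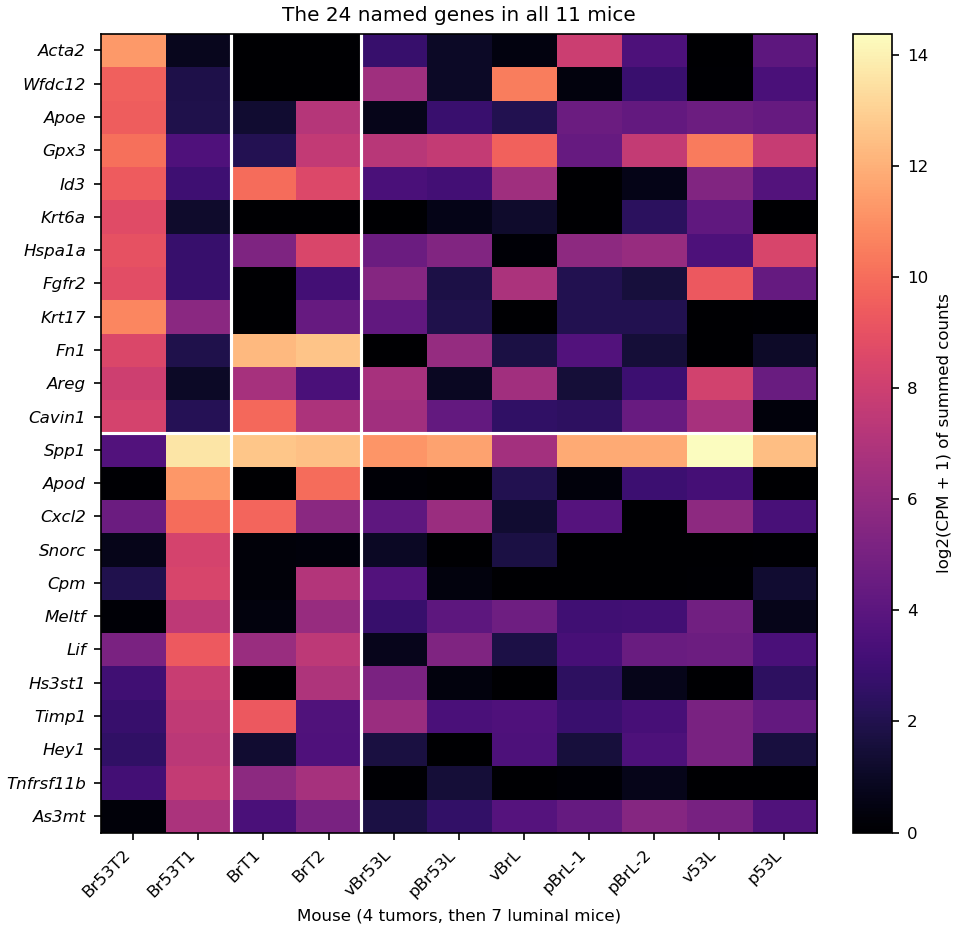
The 24 named genes (rows) in all 11 mice (columns), as log2 of CPM plus 1 of the counts summed over cells. The upper 12 are bright in Br53T2 and dark in Br53T1, the lower 12 the reverse, and *Spp1* is bright in every column except Br53T2, with vBrL (91.5 CPM) between.

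Both luminal mice of the double-mutant genotype, vBr53L and pBr53L, were used to see which tumor stood apart. For each of the 455 higher genes, Br53T2 could lie at least 4-fold above both luminal mice, or Br53T1 at least 4-fold below both. Only the first held for 135 genes, only the second for 94, both for 25 and neither for 201. For the 597 lower genes the directions were reversed, and the numbers were 80, 191, 9 and 317. The largest class in each direction was neither. A tumor outside the luminal levels on the opposite side was not counted, so these classes do not show that it lay within them. These comparisons share the tumors with the first one.

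The Br53T2 cells were not 1 population. After the values had been seen, cells were sorted into marker patterns by the fixed lists: contractile with at least 3 contraction genes at 100 CPM, hormone-sensing with at least 3 hormone-sensing genes at 100 CPM, and *Elf5* with *Elf5* at 100 CPM. In Br53T2, 26 cells showed the contractile pattern, 16 the hormone-sensing pattern and 8 the *Elf5* pattern. Of these, 6 showed more than 1 pattern, which left 20, 12 and 6 cells with 1 pattern alone, and 7 cells showed none. At 50 CPM 3 cells showed none, at 200 CPM 14, and without *Tpm1* and *Cald1* 15. In Br53T1, 7 cells showed the contractile pattern, 0 the hormone-sensing and 2 the *Elf5* pattern, and 21 of 30 showed none. Without *Tpm1* and *Cald1*, which many cell types express, the contractile counts were 15 and 0.

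**Figure D4:**
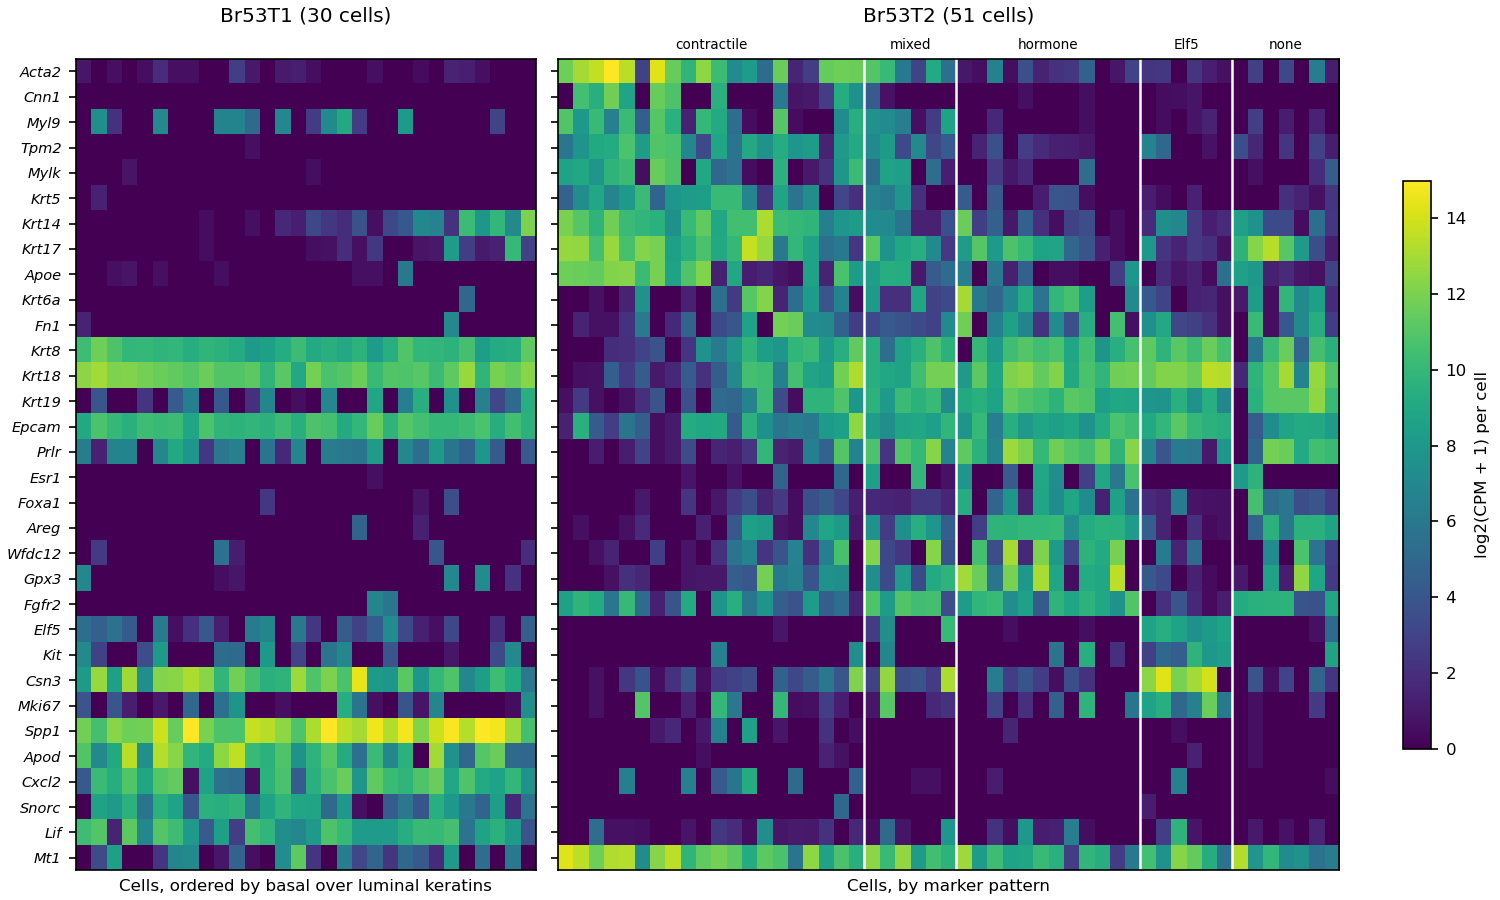
Marker genes (rows) in single cells (columns) of Br53T1 and Br53T2, as log2 of CPM plus 1, with the Br53T2 cells divided by white lines into 20 contractile, 6 mixed, 12 hormone-sensing, 6 *Elf5* and 7 other cells. *Acta2*, *Krt5* and *Apoe* are bright in most of the left block, *Prlr*, *Areg* and *Gpx3* the hormone-sensing block and *Csn3* the *Elf5* block, while *Krt18* and *Spp1* are bright in every Br53T1 cell.

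Genes that had not set the patterns went with them as follows. *Apoe* was at 1783 CPM in the summed contractile cells, 31.1 in the hormone-sensing and 7.71 in the *Elf5* cells. *Bgn*, biglycan, a small matrix proteoglycan, was at 643, 0.261 and 0.448 CPM in the same order, and *Nrg1* at 840, 3 and 1.34 CPM, with 292 CPM in the cells of no pattern. Among the 3 patterns these genes were highest in the contractile cells, but not every matrix gene was: *Fn1* was at 411, 578 and 126 CPM. *Wfdc12* was at 101, 1762 and 20 CPM and *Gpx3* at 82.3, 3315 and 3.32 CPM, both highest in the hormone-sensing cells among the 3 patterns, while the mixed cells had 1969 CPM of *Wfdc12*. *Krt6a* was at 266, 1081 and 3.5 CPM and *Krt15*, a basal keratin, at 184, 580 and 10.5 CPM. Among the 3 patterns these keratins were thus highest in the hormone-sensing cells. In that pattern *Prlr* reached 100 CPM in 12 cells, *Esr1* in 5 and *Pgr* in 2. *Csn3*, kappa casein, was at 287, 6.39 and 10378 CPM, and *Kit*, the stem cell factor receptor gene of luminal progenitors, at 16.6, 65.3 and 226 CPM. Among the contractile cells 1 cell, at 4372 CPM of *Csn3*, was the only one above 100 CPM.

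Keratins also varied with the pattern. A basal keratin class at 100 CPM was present in 20 of 20 contractile cells, 7 of 12 hormone-sensing cells and 3 of 6 *Elf5* cells. A luminal class was present in 11 of 20, 12 of 12 and 6 of 6. Per kilobase the basal keratins exceeded the luminal ones in 15 of 20, 1 of 12 and 0 of 6 cells. The median number of detected genes was 6017, 6458 and 6470, and in the 6 mixed cells 6789. The minimums were 2877, 3819, 4998 and 6152 in the same order, against 4866 in Br53T1. The part of more than 1 cell per chamber in the mixed cells was not tested.

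When each pattern was summed and set against Br53T1 by the same rule, 55 of the 455 higher genes (12.1%) were higher in all 3 patterns, 181 in 2, 199 (43.7%) in 1 and 20 in 0. Of the 597 lower genes 277 (46.4%) were lower in all 3, 259 in 2 and 61 (10.2%) in 1. A gene that is lower in the sum must be low in most of the cells, whereas 1 pattern alone can make a gene higher, so these shares cannot be compared between directions. The patterns hold 20, 12 and 6 cells, and each was set against the same Br53T1 cells.

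Each cell was then set against the summed profiles of the 11 mice by Spearman correlation over 11902 genes, with the cell itself left out of its own profile. All 30 Br53T1 cells were nearest to Br53T1, with a median correlation of 0.64. Of the Br53T2 cells 45 were nearest to Br53T2, with a median over 51 cells of 0.58, and 6 were nearest to a luminal mouse. These 6 were exactly the cells with the *Elf5* pattern alone. Their nearest mice were pBrL-2 for 3 cells and pBrL-1, pBr53L and vBr53L for 1 each, and pBrL-2 is the mouse that shared the chip with Br53T2. Whether they descend from the tumor was not tested.

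With the own profile left out, 42 of 51 Br53T2 cells and 13 of 30 Br53T1 cells were nearest to a luminal mouse. The remaining 9 Br53T2 cells, nearest to another tumor, all showed the contractile pattern alone, of which 11 more cells were nearest to a luminal mouse. Of the Br53T1 cells 15 were nearest to BrT2.

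Proliferation genes were examined next. Of 10 considered G2 and mitosis genes 6 were higher in Br53T2 and 0 lower, beside 5.89% and 7.73% of all genes, and 6 of the 10 met the minimums through Br53T2 alone. Without the 6 cells nearest to a luminal mouse 2 were higher, and with the mean CPM over cells in place of summed counts 1 was. *Mki67*, a marker of cycling cells, was at 262 CPM in Br53T2 and 26.8 in Br53T1, and at 993 CPM in the *Elf5* cells. Cells with a read in at least 5 of the 20 genes made 37.3% of Br53T2 (19 of 51, exact binomial interval 24.1 to 51.9) and 26.7% of Br53T1 (8 of 30, 12.3 to 45.9), and the intervals overlapped. In the patterns these were 7 of 20 contractile, 2 of 12 hormone-sensing and 4 of 6 *Elf5* cells. Of 15 considered S phase genes 0 were higher and 1, *Fen1*, was lower.

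Among p53 target genes, which the p53 protein encoded by *Trp53* induces after DNA damage, 6 of 12 considered genes were higher in Br53T2 and 1 lower, with a median log2 ratio of 1.63, beside 5.89% and 7.73% of all genes. Of these 7 genes 4 met the minimums in both tumors. By mean CPM over cells, or with 30 cells drawn from Br53T2, 4 were higher and 2 lower. *Perp*, a desmosome protein gene, was at 321 CPM in Br53T2 and 27.2 in Br53T1, *Mdm2*, the ubiquitin ligase that degrades p53, at 202 and 44.8 CPM, and *Plk2*, a stress-induced kinase gene, at 928 and 213 CPM. *Pmaip1*, which encodes the death inducer Noxa, was at 112 CPM in Br53T2 and had 2 reads in Br53T1. *Tnfrsf10b*, a death receptor gene, was lower at 73 against 328 CPM. *Cdkn1a*, the classical p53 target p21, was at 186 and 177 CPM.

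Metabolic and stress lists were examined as well. Of 14 considered detoxification genes 0 were higher and 3 lower, with a median log2 ratio of -0.93, beside 7.73% lower of all genes and their median of -0.06. *Gstp1*, a glutathione transferase gene with close copies, was at 84.4 CPM in Br53T2 and 376 CPM in Br53T1, *Gstm1* at 41.9 and 178 CPM, and *Nqo1*, a quinone reductase gene, at 8.81 and 47.8 CPM. Of 11 considered fatty acid and milk lipid genes 0 were higher and 3 lower (*Thrsp*, *Elovl6* and *Srebf1*), with a median of -1.23, and by mean CPM over cells 1 was lower. Through Br53T1 alone, 4 of the 14 detoxification and 3 of the 11 fatty acid genes met the minimums, and of the lower genes 2 and 1 met them in both tumors. *Srebf1*, the master regulator of lipid synthesis, was at 17.1 and 117 CPM. Of 24 considered interferon genes 1 was higher and 2 lower, with a median of -0.87, and of 18 considered endoplasmic reticulum stress genes 0 and 1, with a median of -0.81. Of 19 considered glycolysis and hypoxia genes 1 was higher and 3 lower, with a median of -0.04. Of 10 considered cholesterol synthesis genes 0 were higher and 1 lower, with a median of -0.06.

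The metallothionein genes, which encode small proteins that bind zinc and copper, were named after their values were seen. *Mt1* ran per cell from 5.28 through 995 to 19329 CPM in Br53T2 and from 0 through 6.09 to 2509 CPM in Br53T1, and a read was found in 50 of 51 against 15 of 30 cells. It summed to 2609 and 137 CPM, and a single cell gave 69.5% of the Br53T1 reads. *Mt2* was at 191 CPM, with a read in 45 of 51 cells, and at 0.692 CPM, with a read in 1 of 30. Across the Br53T2 cells the genes went together with a Spearman correlation of 0.84. In the other 9 mice *Mt1* lay between 1734 and 4336 CPM and *Mt2* between 126 and 447 CPM, so Br53T1 was the lowest of the 11 mice for both genes and Br53T2 lay among the others.

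The promoters of this pair are shown because the genes are neighbors on chromosome 8 and differed in the same direction. The windows were taken as for *Acta2*, and capitals mark matches to the core of the metal response element, TGCACNC or TGCGCNC on either strand, where N is any base.
Mt1 (chr8:94178839-94179088, plus strand): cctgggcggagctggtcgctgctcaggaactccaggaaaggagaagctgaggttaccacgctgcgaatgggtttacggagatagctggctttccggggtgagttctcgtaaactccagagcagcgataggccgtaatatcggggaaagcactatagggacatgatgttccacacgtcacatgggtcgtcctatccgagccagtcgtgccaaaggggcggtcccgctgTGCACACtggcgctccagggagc
Mt2 (chr8:94172368-94172617, plus strand): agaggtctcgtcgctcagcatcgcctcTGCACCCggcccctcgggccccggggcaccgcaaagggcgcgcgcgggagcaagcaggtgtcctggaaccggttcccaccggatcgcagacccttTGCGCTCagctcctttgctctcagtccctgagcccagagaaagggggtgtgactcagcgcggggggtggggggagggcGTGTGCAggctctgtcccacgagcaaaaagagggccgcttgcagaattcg
The *Mt1* window held 1 match, 23 bases before the start, and the *Mt2* window held 3, between 50 and 223 bases before it. Of all 32851 windows 21.4% held at least 1 match and 5.17% at least 2.

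Expression was finally summed along the autosomes. For each cell, each gene was set against its mean in the 7 luminal mice on the log2 scale, and these ratios were averaged by autosome over 8032 genes and centred within the cell. The spread of these values over the 19 autosomes had a median SD of 0.50 per cell in Br53T1 (0.39 to 0.61) and 0.25 in Br53T2 (0.11 to 0.46), against medians between 0.14 and 0.16 in the luminal mice, whose single cells reached 0.47. The profiles of Br53T1 cells resembled each other, with a mean correlation of 0.77 between pairs of cells, as did those of BrT1 (0.75) and BrT2 (0.73). In Br53T2 the mean was 0.17, between the tumors and the luminal mice (0.02 to 0.07).

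In Br53T1, 13 of 19 autosomes were shifted one way in at least 90% of cells, and over all 51 Br53T2 cells 0 were, against 9 in BrT1 and 8 in BrT2. Within the Br53T2 patterns, which hold fewer cells, 1 was in the contractile, 3 in the hormone-sensing and 1 in the *Elf5* cells. Chromosome 11 was above 0 in 1 of 20 contractile and 1 of 12 hormone-sensing cells. Chromosome 13 had a mean of -0.77 in Br53T1, below 0 in 30 of 30 cells, and chromosome 9 had -0.58, also in all 30. Chromosomes 1 (0.52) and 16 (0.50) were above 0 in 30 of 30 cells. The largest mean shifts of Br53T2 were on chromosome 19 (-0.23, above 0 in 10 of 51 cells) and chromosome 11 (-0.21, above 0 in 8 of 51). By pattern, the mean pair correlation was 0.21 in contractile, 0.26 in hormone-sensing and 0.09 in *Elf5* cells, and SD medians were 0.25, 0.25 and 0.18. A shift in summed expression can come from gene copies or from regulation, and no DNA was measured.

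**Figure D5:**
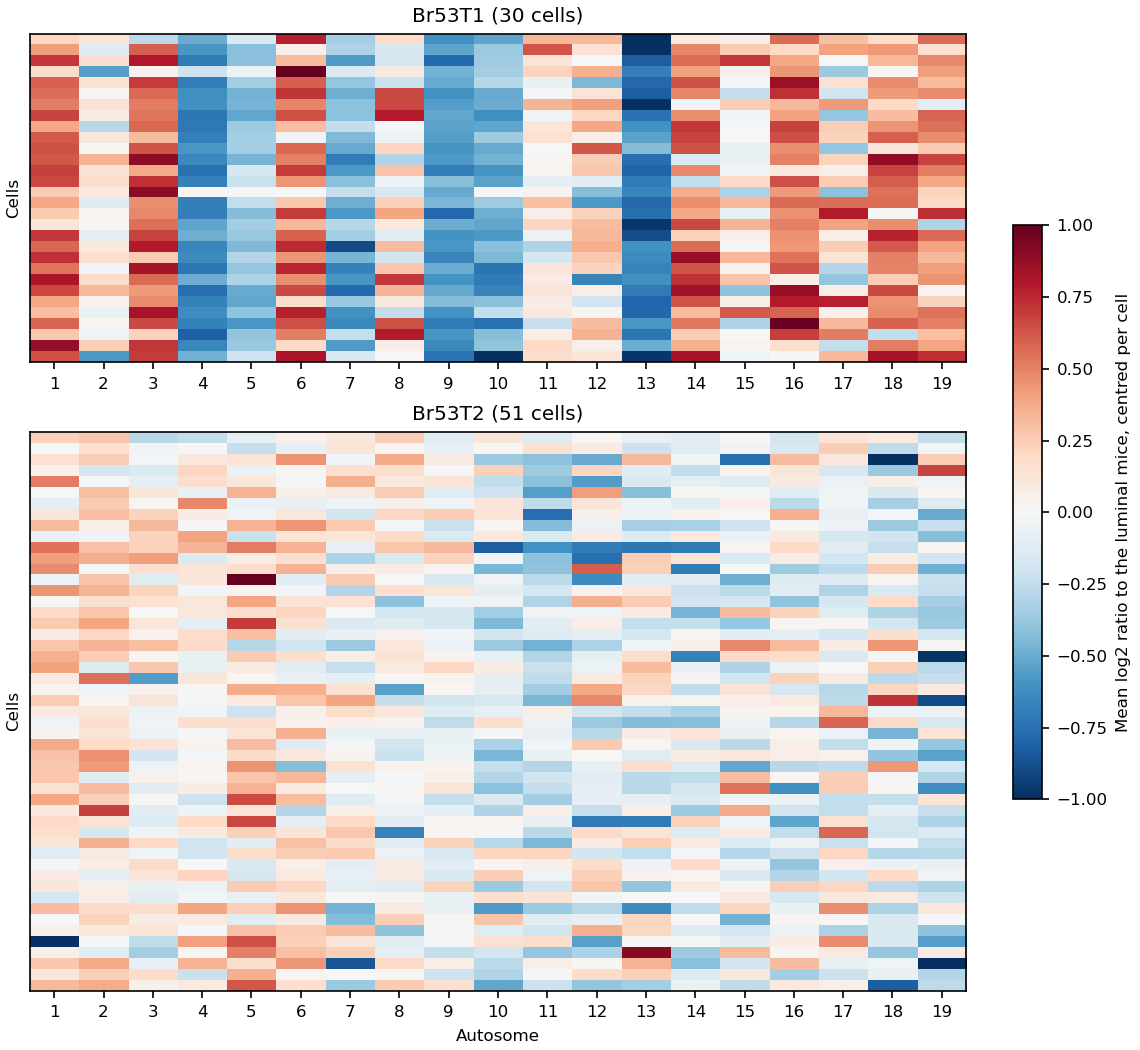
Mean log2 expression ratio to the luminal mice per autosome (columns), centred per cell, in single cells (rows) of Br53T1 and Br53T2, on a color scale from -1 to 1. In Br53T1 the same columns are red or blue from cell to cell, such as chromosome 13 with a mean of -0.77, and in Br53T2 most columns change sign between cells.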

How the data were processed

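Raw gene counts of single cells, deposited by the authors, were used. Per the submitters' processing notes, reads were trimmed with Trim Galore 0.4.1, aligned to mm10 with STAR 2.5.3a and counted with Subread 1.5.3. The annotation release, whether counting used strand, and filters on cells are not given in the sources used here. Counts hold no molecular identifiers, so PCR copies are counted separately. Of 21004 genes in the table, 1401 were without a read. The authors inspected capture sites for doublets, which were not called again. No cell was left out.

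Counts were summed over cells and scaled to CPM with exact Poisson intervals (95%), and shares of cells with a read came from counts thinned to 100000 reads. The ratio step was tested on simulated data. Gene positions matched for 99.6% of genes. Named genes were the 12 in each direction with the largest log2 ratio of CPM plus 10 among those past 4-fold with a read in at least 50% of cells of the higher tumor, gene models left out, together with members of 40 lists, the targeted genes and the gate genes. The members and lists were chosen with earlier results of these data known. Alternatives were TMM and RLE factors (edgeR 4.0.16), other folds, minimums and cell sets. The marker patterns, the correlation of chromosome profiles, leaving out the own mouse and leaving out pattern cells were chosen after seeing the data. Python 3.11.15 and R 4.3.3 were used.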

Additional observations from a re-analysis of the deposited data

Results flagged for a closer look

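Among the 4 tumors, 1 value stood far from the other 3 in 4 of 40 sets of values examined. For independent sets fixed in advance, chance would give such a value in about 1 in 20, or 2.0 of 40. These sets share genes and were chosen with earlier results known, and the chromosome correlation after seeing the data. The number flagged therefore cannot be compared with 2.0. The hormone-sensing list, as log2 of its summed CPM plus 1, was at 10.84 in Br53T2, and the nearest tumor, BrT1, was at 7.034. The TGF-beta and BMP pathway list was at 10.07 in Br53T1, and the nearest tumor was Br53T2 at 11.47. The milk protein list was at 5.482 in BrT1, next to 13.27 in Br53T2. The mean correlation of chromosome profiles between cells was 0.1741 in Br53T2, and BrT2 followed at 0.7272.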

How the results depend on the processing

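No paired analysis was possible because each tumor was 1 mouse and the labels pair no samples. The 455 higher and 597 lower genes became 1332 and 1675 at 2-fold, 229 and 232 at 8-fold, and 1175 and 929 with no minimum share of cells. The lower genes became 323 at a minimum of 50 CPM and 930 without the contractile Br53T2 cells, where 511 genes were higher. Without those cells 3 basal and 0 contraction genes were higher, and without the hormone-sensing cells 4 hormone-sensing genes were, but these cells were chosen by the contraction and hormone-sensing genes themselves. The 6 higher G2 and mitosis genes became 1 by mean CPM over cells and 2 without the cells nearest to another mouse. Without thinning, cells with reads of both keratin classes made 66.7% of Br53T1 and 98.0% of Br53T2 (46.7% and 78.4% with it), and cycling cells 46.7% and 64.7%. Br53T2 cycling cells made 23.5% with 2 reads per gene required, 54.9% with 3 or more genes and 19.6% with 8 or more. With the own mouse left out, 13 Br53T1 and 42 Br53T2 cells were nearest to a luminal mouse. Contractile cells numbered 15 in Br53T2 and 0 in Br53T1 without *Tpm1* and *Cald1*, and 1 in Br53T1 at 200 CPM, while *Elf5* cells of Br53T1 numbered 5 at 50 CPM and 0 at 200 CPM. Each named gene was recomputed under 14 alternatives: all 336 combinations kept the direction and 335 met the whole rule. *Acta2* without the contractile cells was still past 4-fold, at a log2 ratio of 3.47, but missed the minimums of level or cell share. Of 128 counts of other lists 18 moved. TMM and RLE factors gave 444 and 461 higher genes. Depth limits single cells more than sums, and 1 mouse a side limits every value.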

Other observations

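Some genes of the oncofetal and imprinted growth list were higher in Br53T2. Of 7 considered genes of the oncofetal and imprinted list 3 were higher in Br53T2 and 0 lower, beside 5.89% and 7.73% of all genes, and 1 of these 3 met the minimums in both tumors. *H19*, a maternally expressed long RNA, was at 701 CPM in Br53T2 with a read in 23 of 51 cells and had no read in Br53T1. A single cell gave 39.8% of these reads, and the level without it was 433 CPM. *H19* was at 953 CPM in the hormone-sensing, 906 in the mixed, 142 in the contractile and 0.359 in the *Elf5* cells, and the 2131 CPM of the cells of no pattern came mostly from that single cell. Of the other 9 mice, BrT1 had 322 CPM and the others at most 0.131 CPM. *Igf2*, its paternally expressed neighbor and a growth factor gene, was at 327 CPM in Br53T2 and 79.1 CPM in Br53T1. *Igfbp3*, which encodes a binding protein of that growth factor family, was at 93 and 9.84 CPM.

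Matrix genes were higher in part. Of 15 considered collagen and matrix genes 7 were higher in Br53T2 and 2 lower, beside 5.89% and 7.73% of all genes, but of these 9 genes 1 met the minimums in both tumors and the others only where they were high. Without the contractile Br53T2 cells 0 were higher and 6 lower. *Tnc*, tenascin, was at 146 and 27.7 CPM and at 378 CPM in the contractile cells. *Bgn* was at 249 CPM and *Dcn* at 87.5 CPM in Br53T2, and neither had a read in Br53T1. Of 16 considered junction genes 2 were higher, of which 1 met the minimums in both tumors, and 0 lower: *Dsp*, desmoplakin, at 451 and 13.8 CPM, and *Gja1*, a gap junction gene, at 1056 and 182 CPM. *Nfib*, a nuclear factor I transcription factor gene, was at 1161 and 129 CPM, with a read in 49 of 51 and 11 of 30 cells, and *Mfge8*, a milk fat globule protein gene, was lower at 600 against 2836 CPM.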
